A study of Mus musculus with 8 samples.

Results

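The mRNAs of DEAD and DEAH box RNA helicases were followed in ovulated metaphase II (MII) oocytes of young and old mice. Members were the genes whose symbol begins with Ddx or Dhx and a digit and that stand in both deposited expression tables, which gave 43 of the 8537 genes shared by the tables. 2 further genes of this naming pattern were left out by the rule, and 2 (Ddx20 and Ddx56) stood in the input table alone. All 43 were found in the annotation by their identifiers. The oocytes came from C57BL/6 females of the genotype RiboTagF/F;Zp3-Cre, in young (1 month) and old (12 to 15 months, retired breeders) animals alike. In this model the Zp3 promoter, active in growing oocytes, drives a Cre recombinase that switches the ribosomal protein Rpl22 to a form with an HA tag, so that ribosomes made in oocytes can be pulled down with an antibody to HA together with the mRNAs they carry. Females of both ages were primed with PMSG (5 IU) and given hCG (10 IU) after 48 h, and ovulated oocytes were taken 13 h after that. Oocytes were pooled to 200 per replicate, with 2 pools per age, and each pool gave an input library (total mRNA of the lysate) and an HA library (mRNA recovered with tagged ribosomes).

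DEAD and DEAH box proteins are enzymes that bind RNA and spend ATP or another nucleotide to open short duplexes, to move along a strand or to strip proteins off RNA. The family name is the 1-letter amino acid code of a short motif of the ATP-binding core. Its members serve nearly every step in the life of an mRNA, from splicing and nuclear export to translation and decay, and many others build ribosomes. A fully grown oocyte does not transcribe, so that its helicase mRNAs are stored maternal messages, and Ddx4, the mouse form of Vasa, is a classical germ cell marker.

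The motif that names the family was searched in the coding sequence of each member as letters with a hydrophobic residue in at least 2 of the 3 positions before them, and the stretches below are shown because the results turn on these genes. Of the 43 genes, 22 matched DEAD, 8 DEAH, 8 DExH and 5 DExD, taken as the first match in that order, where x is any residue. A match was not checked to be the box of the ATP-binding core. Dhx32 was the only Dhx gene with a DExD match (codon 139 of 751), and this match may lie outside the box. Ddx39 had 2 such matches, of which the first was taken. Each stretch has 30 bases, 5′ to 3′ on the coding strand of a GENCODE M21 transcript (GRCm38), with the 4 codons of the box in capitals.
Ddx3x: ctggtgttaGATGAAGCTGACcggatgtta
Ddx4: ttagttttgGATGAAGCTGATcgaatgttg
Ddx5: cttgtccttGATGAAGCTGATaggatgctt
Ddx19a: tttgttctgGACGAGGCTGATgtgatgata
Ddx19b: tttgttctgGACGAGGCTGATgtgatgata
Ddx46: gttgttttaGATGAAGCAGACagaatgttt
Ddx51: ctgatcattGATGAGGCTGACcggatgata
Dhx8: attatgttgGATGAAGCACACgagaggacc
Dhx15: ataattcttGATGAGGCCCATgaaagaaca
Dhx35: atcatgctgGATGAAGCCCACgagaggacc
Dhx9: gttattgtgGATGAAATTCATgaaagagat
Dhx36: attgtacttGATGAAATTCATgaaaggaat
The same protein motif was spelled in 12 ways among the 22 DEAD boxes and in 8 ways among the 8 DEAH boxes. Ddx19a and Ddx19b carried the same 30 bases here, and 31.0% of the 36-base words of Ddx19a transcripts also occurred in Ddx19b, so that reads of this pair may have been split between them. Ddx18 shared 62.9% of its words with other genes, mostly Gm16433, and Ddx5 shared 19.0%, mostly with Gm12183. Levels of these genes are uncertain to that extent.

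Between 37817382 and 59688578 reads fell on the genes of an HA library and between 38276453 and 60052814 on those of an input library. A count of 3 reads, taken as the floor, corresponded to 0.0388 to 0.111 CPM (reads on a gene as a share of the library, scaled by the authors) in HA and to 0.0435 to 0.0788 CPM in input. Floors cover counting error only. Oocyte markers were present in both tables (11 of 12, with Figla absent), with a summed HA level of 13046 and 12939 CPM in young and 13176 and 20116 CPM in old pools. Cumulus and granulosa markers were measured for 6 of 18 genes in HA (summed 207 and 213 CPM in young, 146 and 95.2 CPM in old) and for 12 of 18 in input (251 and 334 CPM in young, 159 and 335 CPM in old). Amh, Amhr2, Cyp11a1, Foxl2, Lhcgr and Ptx3 were in neither table. None of 10 blood and immune markers was in either table. Of 7 oviduct markers, Cdh1 was in both tables and Epcam in input, with 0.0581 and 3.29 CPM in young and 57.6 and 0.963 CPM in old pools. The part of other cells in the results below was not tested. The study describes the pools of an age as biologically independent samples of a single experiment, and p-values measure the spread between these pools. CPM are shares of a library divided by a scaling factor of the authors, which in HA reached 1.30 in young pools and was 0.896 and 0.715 in old pools. Less mRNA per oocyte cannot be told apart from a lower share.

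All 43 helicase mRNAs were above 3 reads in each of the 4 input libraries, and most were of modest abundance. Per kilobase of exon, Ddx19a and Ddx3x stood highest in input, with means over the 4 pools of 155 and 142 CPM per kb, and their ranges (125 to 182 and 101 to 192) overlapped. Ddx46 followed at 39.9 CPM per kb (range 32.3 to 47.7), below the range of either. Ddx18, Dhx8 and Dhx57 came next at 30.2, 26.0 and 22.9 CPM per kb, with ranges that overlapped each other and that of Ddx46. In HA the order was Ddx3x (432 CPM per kb, range 221 to 651), Ddx19a (239, 124 to 436) and Ddx5 (50.1, 35.0 to 92.7), and only the ranges of Ddx3x and Ddx19a overlapped. Ddx3x alone made up 20.8% to 28.4% of the summed input CPM of the 43 genes and 38.8% to 57.9% of their summed HA CPM. The summed HA CPM of the 43 was 3022 and 3009 in young and 5484 and 7942 in old pools. Without Ddx3x the sum was 1670 and 1842 in young and 2311 and 4506 in old pools. As shares of the summed CPM of all genes of a library, where the scaling factor cancels, the 43 took 0.392% and 0.362% in young and 0.492% and 0.568% in old HA pools. A level of at least 10 CPM in 2 or more libraries was reached by 38 members in input (64.3% of all genes) and by 32 in HA (63.4%).

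The share of a message recovered with ribosomes was read as HA over input in each pool, relative to the median of all genes of that pool, because the 2 tables were scaled separately. 8 helicases lay above the median of all genes in 4 of 4 pools (15.5% of all genes did) and 6 lay below it in 4 of 4 pools (12.3% of all genes). The 8 were Dhx9, Ddx39, Dhx36, Ddx3x, Ddx5, Ddx19b, Ddx19a and Dhx57. They include all 3 members of mRNA export and 3 of the 5 genes of translation and cytoplasmic RNA. Transcripts of Ddx19a and Ddx19b have part of their sequence in common, so that reads may have been split between them, which was not tested. Dhx9, or RNA helicase A, which unwinds duplex RNA, had the highest mean of the 43, 2.83 ± 0.91 log2 units above the median of all genes (SD, n = 4 pools), at percentile 99.9 of the genes in both tables. Its values were 2.09 and 3.16 in young and 2.09 and 3.97 in old pools. Dhx36, which resolves G-quadruplexes, had 2.56 and 1.49 in young and 1.70 and 2.59 in old pools. Both genes thus lay well above the median of all genes at either age, with overlapping groups. Ddx3x, which helps ribosomes start on structured leaders, had 1.75 and 1.21 in young and 2.47 and 2.37 in old pools. The 6 below the median were Ddx51, Ddx11, Ddx55, Ddx18, Ddx41 and Dhx29. Ddx51 was the lowest of all 43, with -1.40 and -0.59 in young and -3.57 and -2.87 in old pools. Ddx11, a DNA helicase of sister chromatid cohesion, had -1.09 and -0.88 in young and -1.97 and -4.30 in old pools. Dhx29, a factor that sits on the small ribosomal subunit during scanning, had -1.50 and -0.11 in young and -1.69 and -0.49 in old pools. The number below the median in every pool was 10 without old pool 2, against 6 with all pools.

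**Figure D1:**
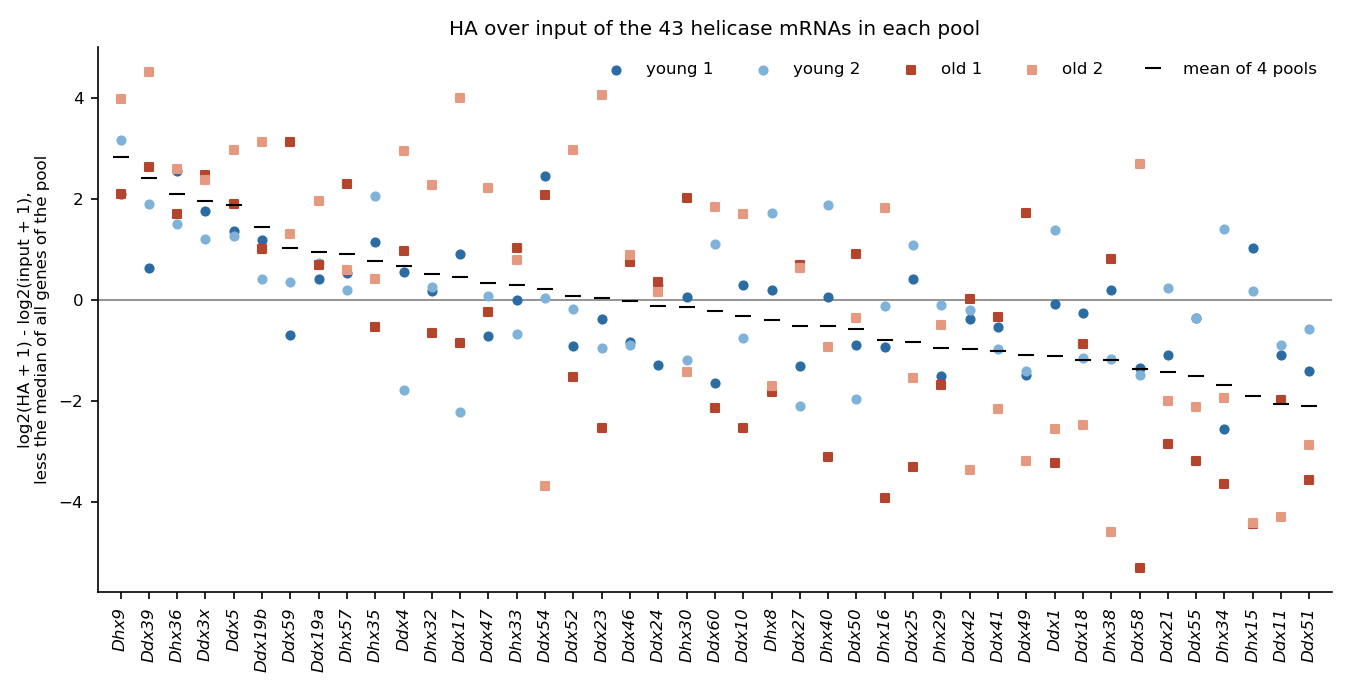
Each point is 1 pool, with log2(HA + 1) minus log2(input + 1) less the median of all genes of that pool on the vertical axis and the 43 helicases ordered by their mean (bar) on the horizontal axis. Dhx9 leads with a mean of 2.83 and Ddx51 ends the order, and the old pools (squares) lie far apart for many genes in between, such as Ddx58 and Ddx23.

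Between old and young pools differences of the helicases ran in both directions, and in limma no member had a Benjamini-Hochberg adjusted p under 0.05 in input, HA or HA over input (0.0095%, 0% and 0% of all genes did). At an unadjusted p under 0.05 there were 3 members in input (6.18% of all genes), 6 in HA (14.7%) and 4 in HA over input (6.49%). In input these were 3 higher and 0 lower in old pools (2.71% and 3.48% of all genes), in HA 2 higher and 4 lower (4.28% and 10.5%), and in HA over input 1 higher and 3 lower (2.98% and 3.51%). By the quasi-likelihood test of edgeR on the recovered reads, no member passed the adjusted threshold either, and 2, 7 and 6 members had an unadjusted p under 0.05 (5.51%, 13.5% and 10.9% of all genes). As shares of the 43, the limma counts were 6.98%, 14.0% and 9.30%, near those of all genes. In HA, both old pools lay above both young pools for 9 members (17.2% of all genes) and below them for 10 (24.7%). In input, 10 lay above (16.4%) and 6 below (18.9%). For HA over input, 9 lay above (17.2%) and 10 below (20.4%). The median log2 difference, old minus young on the log2(CPM + 1) scale, was 0.06 in input against -0.03 over all genes, 0.11 in HA against -0.14, and 0.03 for HA over input against -0.10. On this scale the difference of low genes is understated.

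**Figure D2:**
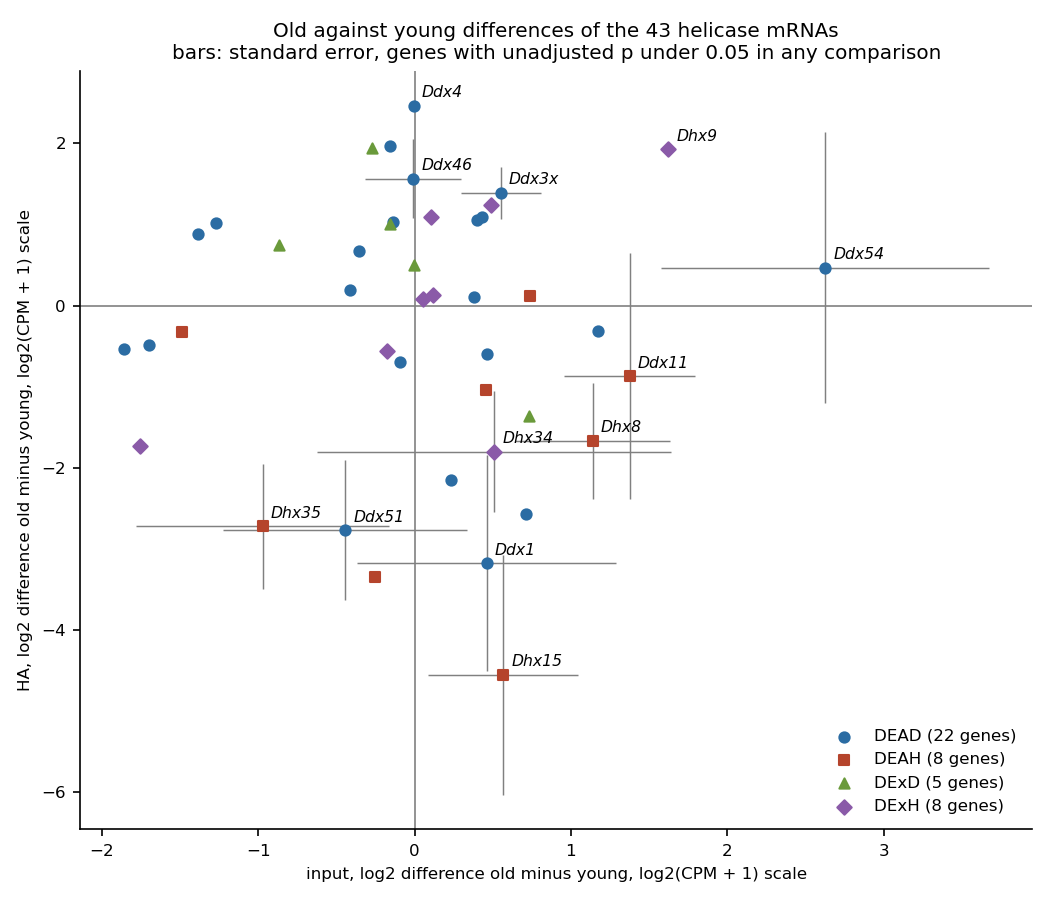
Log2 difference old minus young in input (horizontal) and in HA (vertical) for the 43 helicases, coloured by the box matched in the coding sequence. Standard errors are shown for genes with an unadjusted p under 0.05 in any comparison. Dhx15 lies lowest in HA (-4.55) although its input difference is positive (0.57), and Ddx46 lies at 1.57 in HA with an input difference near 0.

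Pools of old oocytes differed from each other more than pools of young ones in HA. The median absolute difference between replicate pools over the 43 members was 1.41 log2 units in old HA and 0.58 in young HA, against 1.29 and 0.77 over all genes. In old HA, 19 members differed by over 2 log2 units between the pools (34.8% of all genes), against 4 in young HA (12.8%). In input the corresponding medians were 0.81 in old and 0.69 in young, and 9 and 3 members were over 2 log2 units apart (17.5% and 7.61% of all genes). In HA, 6 members were at or under 3 reads in at least 1 old library, namely Ddx23, Ddx49, Ddx54, Ddx55, Dhx34 and Dhx35, and none in a young library. 20% of all genes of the HA table were at or under that floor in at least 1 old library, and 2.6% in at least 1 young library.

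Among the 5 genes of translation and cytoplasmic RNA, Ddx3x had the most abundant message and the smallest p of any member in HA in limma. Its HA level was 1352 and 1167 CPM in young and 3173 and 3436 CPM in old pools. Its input level was 533 and 678 CPM in young and 768 and 1012 CPM in old pools. Old pools were thus above young pools in both fractions, and the means stood 2.62-fold apart in HA and 1.47-fold in input. In HA the log2 difference was 1.39 (standard error 0.32, unadjusted p = 0.00374 and adjusted p = 0.297 in limma). It was 0.75 with libraries of the same sum and 0.64 by quantile normalization. HA over input was 2.53 and 1.72 in young and 4.13 and 3.39 in old pools, which put the log2 difference at 0.84 (standard error 0.38, adjusted p = 0.739 in limma). With libraries of the same sum that difference was 0.39, and by quantile normalization 0.24. Ddx3x lies on chromosome X, 13280970 to 13294052 on the plus strand of GRCm38. Dhx9 had 20.1 and 66.1 CPM in young and 48.2 and 418 CPM in old HA pools, so that the groups overlapped and the old mean rested on pool 2. In input it had 5.59 and 9.12 CPM in young and 14.5 and 39.6 CPM in old pools, with no overlap (log2 difference 1.62, standard error 0.91, adjusted p = 0.793 in limma). Dhx36 had 72.7 and 74.9 CPM in young and 59.2 and 103 CPM in old HA pools, and its input was 15.6 and 35.2 CPM in young and 23.8 and 25.2 CPM in old pools. Its groups overlapped in both fractions. Dhx29 had 26.7 and 91.9 CPM in young and 28.9 and 38.8 CPM in old HA pools, again with overlap, at an input of 104 and 133 CPM in young and 129 and 84.0 CPM in old pools. Dhx34, a factor of nonsense-mediated decay, was scarce in HA, with 71 and 342 reads in young and 0 and 3 reads in old pools. In input it had 967 and 98 reads in young and 855 and 275 reads in old pools, and no fold is given for HA because the old pools were at or under the floor.

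The pair of germ line helicases differed in direction. Ddx4 had an even input level of 8.87 and 7.10 CPM in young and 9.15 and 6.80 CPM in old pools, while its HA level was 9.94 and 0.758 CPM in young and 13.7 and 38.8 CPM in old pools. Both old HA pools were above both young ones, but the young pools were themselves far apart (769 against 43 reads), and the log2 difference of 2.46 had a standard error of 1.64 (adjusted p = 0.610 in limma). Ddx25, known as a gonadotropin-regulated helicase of the testis, had 9.10 and 13.3 CPM in young and 1.90 and 0.407 CPM in old HA pools, with no overlap (log2 difference -2.57, standard error 1.26, adjusted p = 0.419 in limma). Its input was 9.06 and 7.99 CPM in young and 37.7 and 5.26 CPM in old pools, where the groups overlapped.

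All 3 members of mRNA export had a higher mean in old HA pools, with log2 differences from 1.03 to 1.94 that did not pass the test, whereas their input differences ran from -0.27 to 0.40. Ddx19a, which acts at the nuclear pore, had 366 and 523 CPM in young and 647 and 1290.3 CPM in old HA pools. In input it had 368 and 425 CPM in young and 537 and 507 CPM in old pools. The groups did not overlap in either fraction, and the HA log2 difference was 1.06 (standard error 0.47, adjusted p = 0.367 in limma). It was 0.56 without old pool 2, 1.56 without old pool 1, 0.42 with libraries of the same sum and 0.37 by quantile normalization. Its paralog Ddx19b had 83.4 and 45.3 CPM in young and 34.9 and 454 CPM in old HA pools, and 48.2 and 45.5 CPM in young and 23.0 and 78.0 CPM in old input pools. Here the old pools lay on either side of the young ones in both fractions. Ddx39 had 33.2 and 6.80 CPM in young and 99.7 and 38.1 CPM in old HA pools, and 28.6 and 1.81 CPM in young and 20.8 and 1.60 CPM in old input pools. Its input split by replicate number rather than by age, and its annotated span overlaps Adgre5, with which it shared 14.1% of 36-base words.

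The 9 helicases of the spliceosome included Dhx15, which lay lowest of the 43 in HA in limma, and Ddx46, which lay in the opposite direction, and neither passed the adjusted threshold in limma. In HA, 2 were higher and 7 lower in old pools by their means on the log2 scale, and in HA over input likewise 2 and 7, whereas in input 5 were higher and 4 lower. The HA split depended on the scaling, with 1 higher and 8 lower when libraries had the same sum and 5 and 4 by quantile normalization. Dhx15, which takes spent spliceosomes apart, had 66.2 and 29.2 CPM in young HA pools and 1.38 and 0.554 CPM in old HA pools (5122 and 1658 reads against 58 and 15). In input it had 42.7 and 35.2 CPM in young and 67.7 and 49.4 CPM in old pools. The old pools were therefore far below the young ones in HA and above them in input. The log2 difference was -4.55 in HA (standard error 1.48, unadjusted p = 0.0186 and adjusted p = 0.297 in limma) and -5.12 for HA over input (standard error 1.35, unadjusted p = 0.00454 and adjusted p = 0.739 in limma). On the recovered reads, Dhx15 passed the adjusted threshold in HA in edgeR's likelihood ratio test (adjusted p = 0.0464, with 3.32% of all genes called) and in DESeq2 (adjusted p = 0.000411, with 5.71% called), and not in edgeR's quasi-likelihood test (adjusted p = 0.294). For HA over input, the adjusted p was 0.00897 in edgeR's likelihood ratio test (2.48% of all genes called), 2.84e-05 in DESeq2 (4.33%) and 0.327 in the quasi-likelihood test. Unlike limma, these tests of HA over input did not pair the HA and input libraries of a pool. In input, neither the likelihood ratio test (0.475% of all genes called) nor DESeq2 (1.08%) called any member. Without old pool 1, limma itself gave an adjusted p of 0.0328 in HA. Over 16 alternatives in HA its adjusted p ran from 0.000411 to 0.767 and its log2 difference from -5.62 to -3.05. Dhx15 lies on chromosome 5, 52150203 to 52190514 on the minus strand, and its span overlaps Gm43178, which is in neither table.

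Dhx8, which releases the spliced message, had 107 and 118 CPM in young and 44.0 and 27.3 CPM in old HA pools, while its input was 125 and 47.8 CPM in young and 213 and 138 CPM in old pools. Both fractions separated the ages, in opposite directions. HA over input was 0.857 and 2.46 in young and 0.207 and 0.197 in old pools, or a log2 difference of -2.81 (standard error 0.87, unadjusted p = 0.0108 and adjusted p = 0.739 in limma). In input the log2 difference was 1.14 (standard error 0.49, unadjusted p = 0.0485 and adjusted p = 0.778 in limma), and it was 0.46 without young pool 2 and 1.82 without young pool 1. Ddx46, which acts when the branch site is recognised, lay the other way, with 107 and 131 CPM in young and 294 and 421 CPM in old HA pools. In input, 252 and 329 CPM in young pools overlapped 236 and 348 CPM in old pools. HA over input was 0.422 and 0.398 in young and 1.25 and 1.21 in old pools, so that replicates lay close together and the means stood 3.00-fold apart. The log2 difference was 1.57 in HA (standard error 0.49, unadjusted p = 0.0161 and adjusted p = 0.297 in limma) and 1.58 for HA over input (standard error 0.55, unadjusted p = 0.0201 and adjusted p = 0.739 in limma). With libraries of the same sum the HA difference was 0.93, and by quantile normalization 0.98. Dhx35, a helicase found in the catalytic spliceosome, was scarce, with 467 and 342 reads in young and 4 and 1 reads in old HA pools, and 221 and 49 reads in young and 61 and 9 reads in old input pools. Ddx23, which acts before the spliceosome becomes active, had 11.2 and 3.97 CPM in young and 0.0238 and 27.2 CPM in old HA pools, the first of the old pools at 1 read. In input it had 19.9 and 12.0 CPM in young and 6.98 and 1.58 CPM in old pools, with no overlap (log2 difference -1.86, standard error 1.05, adjusted p = 0.795 in limma). The other 4, Ddx41, Ddx42, Dhx16 and Dhx38, had overlapping HA groups, with HA log2 differences from -1.04 (Dhx38) to 0.12 (Dhx16).

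**Figure D3:**
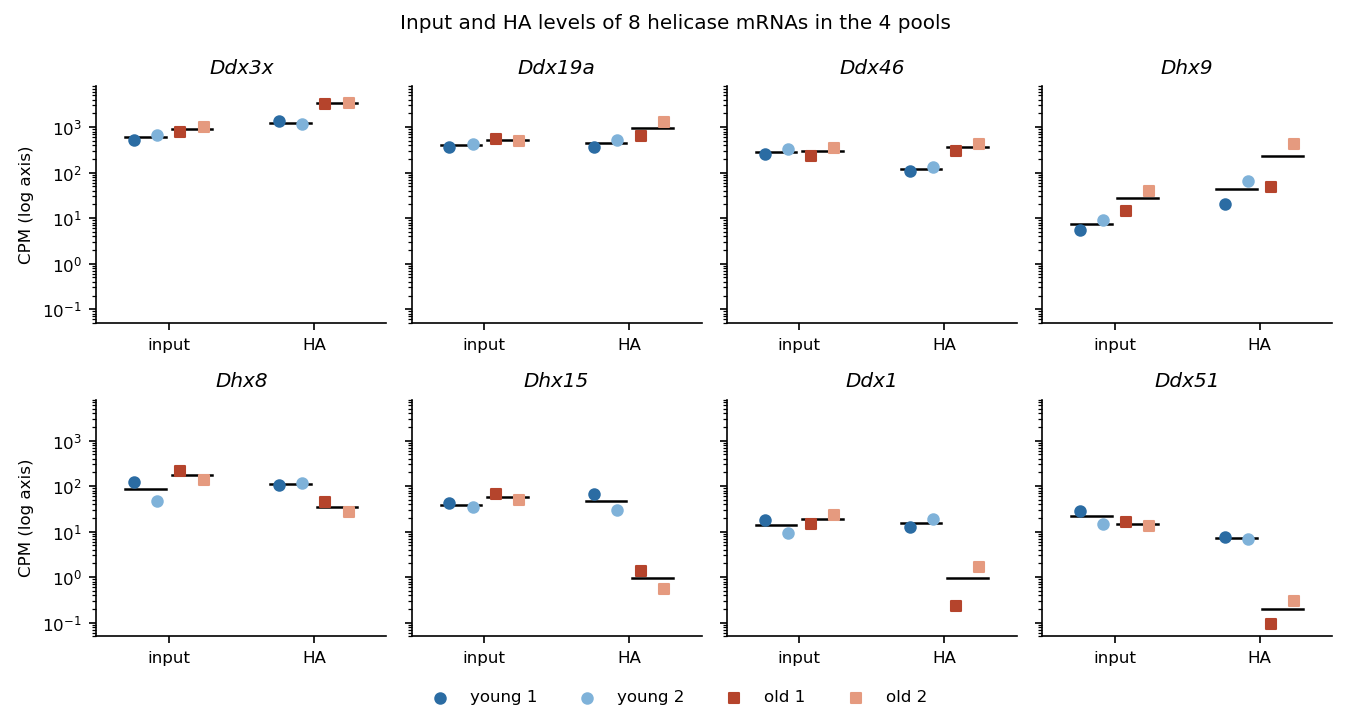
CPM on a log axis in input and HA for 8 helicase mRNAs, with circles for the young and squares for the old pools and a bar at the mean of each age. Dhx15, Ddx1 and Ddx51 lie at 1.70 CPM or less in old HA pools while their input levels lie between 9.38 and 67.7 CPM, whereas Ddx3x reaches 3436 CPM in old HA.

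Of the 3 genes of transcription, small RNA and tRNA, Ddx5, a coregulator of transcription and of microRNA processing, had 202 and 214 CPM in young and 205 and 536 CPM in old HA pools. Its input was lower in old pools, 104 and 119 CPM in young against 73.1 and 103 CPM in old. HA over input was 1.94 and 1.80 in young and 2.80 and 5.19 in old pools, with no overlap (log2 difference 1.02, standard error 0.67, adjusted p = 0.758 in limma). Its paralog Ddx17 had 44.6 and 11.6 CPM in young and 36.8 and 231 CPM in old HA pools, and 31.1 and 77.3 CPM in young and 91.0 and 21.1 CPM in old input pools, with overlap in both. Ddx1, a member of the tRNA ligase complex, had 12.5 and 19.1 CPM in young and 0.238 and 1.70 CPM in old HA pools (966 and 1084 reads against 10 and 46). Its input overlapped, at 18 and 9.38 CPM in young and 14.5 and 23.1 CPM in old pools. The log2 difference of Ddx1 was -3.17 in HA (standard error 1.33, adjusted p = 0.339 in limma) and -3.63 for HA over input (standard error 1.59, unadjusted p = 0.0491 and adjusted p = 0.739 in limma).

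The 13 helicases of ribosome assembly showed no shared direction, with 7 higher and 6 lower in HA, 6 and 7 in input, and 7 and 6 in HA over input. With libraries of the same sum the HA split was 5 and 8, and by quantile normalization it was 8 and 5. Ddx51 had 7.47 and 6.77 CPM in young and 0.0950 and 0.296 CPM in old HA pools (578 and 384 reads against 4 and 8), below both young pools. Its input was 28.8 and 14.7 CPM in young and 16.5 and 13.4 CPM in old pools, with overlap. The HA log2 difference of Ddx51 was -2.77 (standard error 0.87, unadjusted p = 0.0160 and adjusted p = 0.297 in limma). It was -1.35 by quantile normalization, -1.22 with 5 CPM added in place of 1 and -5.19 in edgeR's likelihood ratio test. Ddx55 had 9.16 and 4.64 CPM in young and 0.0475 and 1.77 CPM in old HA pools, the first of these at 2 reads, while its input was 16.4 and 8.78 CPM in young and 11.8 and 17.4 CPM in old pools. Ddx21, a nucleolar helicase of ribosomal RNA synthesis and processing, had 12.2 and 24.9 CPM in young and 5.46 and 6.99 CPM in old HA pools. In input Ddx21 went the other way, with 36.6 and 28.6 CPM in young and 62.0 and 47.7 CPM in old pools, and its HA log2 difference was -1.37 (standard error 1.43, adjusted p = 0.786 in limma). Ddx27 had 3.53 and 2.50 CPM in young and 4.47 and 8.94 CPM in old HA pools, and 14.0 and 19.1 CPM in young and 3.55 and 8.73 CPM in old input pools. It was thus the reverse of Ddx21 in both fractions. Ddx54 split by pool rather than by age in HA, with 7.46 and 0.0881 CPM in young and 16.0 and 0.0370 CPM in old pools. Its input was 1.04 and 0.421 CPM in young (72 and 16 reads) and 4.43 and 19.3 CPM in old pools (241 and 964 reads), and the log2 difference was 2.62 (standard error 1.05, unadjusted p = 0.0355 and adjusted p = 0.778 in limma). The other 8 genes of this group had HA log2 differences from -0.59 (Ddx18) to 1.09 (Ddx24), and of these only Ddx24 had HA groups that did not overlap, at 23.3 and 57.0 CPM in young and 82.1 and 75.7 CPM in old pools.

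Among the remaining 8 members, Ddx11 had the smallest p in input, with 65.8 and 37.8 CPM in young and 135 and 128 CPM in old pools. Its log2 difference in input was 1.38 (standard error 0.42, unadjusted p = 0.0105 and adjusted p = 0.778 in limma). In HA, Ddx11 had 22.5 and 14.7 CPM in young and 24.8 and 3.29 CPM in old pools, so that HA did not follow input. Ddx60, an antiviral helicase, had 37.3 and 13.1 CPM in young and 6.36 and 5.44 CPM in old input pools (log2 difference -1.76, standard error 0.94, adjusted p = 0.790 in limma), and its HA groups overlapped, at 8.17 and 21.7 CPM in young and 0.238 and 14.2 CPM in old pools. Ddx58, or RIG-I, a sensor of viral RNA, had 5.16 and 5.91 CPM in young and 0.166 and 42.8 CPM in old HA pools. Dhx30, of the mitochondrial ribosome, had 7.82 and 10.5 CPM in young and 35.3 and 14.7 CPM in old HA pools, with no overlap, and its span overlaps Smarcc1, which is also in the tables. Of the 4 genes whose role is less settled, Dhx57 had 138 and 106 CPM in young and 311 and 214 CPM in old HA pools, with no overlap (log2 difference 1.09, standard error 0.52, adjusted p = 0.395 in limma), at an input of 127 and 125 CPM in young and 84.7 and 216 CPM in old pools. Over 16 alternatives the HA log2 difference of Dhx57 ran from 0.45 to 1.36. Dhx40 lay below both young pools in HA, at 0.309 and 8.24 CPM in old against 23.9 and 49.0 CPM in young pools. Ddx59 and Dhx32 had overlapping groups in both fractions.

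The HA differences were also read by the mean input level of each message over the 4 pools, a measure that holds no HA value, chosen after the data were seen. Of the 13 members at 50 CPM or more in input, 8 had a higher and 5 (Ddx11, Ddx18, Dhx29, Dhx38 and Dhx8) a lower HA value in old pools, with a median log2 difference of 0.67. Over all genes of that input level the median was 0.26, and 60.6% were higher. The 24 members at 10 to 50 CPM in input split into 12 higher and 12 lower (median -0.11, against -0.52 over all genes of that level, of which 37.2% were higher). The 6 members under 10 CPM split into 3 and 3 (median -0.25, against -0.54 and 36.3%). With libraries of the same sum, the median of all genes in HA moved by -0.55 log2 units, and the members split into 7 higher and 6 lower at the highest input level, 8 and 16 at the middle and 2 and 4 at the lowest. By quantile normalization the order of the levels turned, with medians of 0.01, 0.22 and 0.65 for the members and -0.22, -0.05 and 0.39 for all genes from the highest to the lowest input level. By the box matched in the coding sequence, 7 of the 8 DEAH genes were lower in HA in old pools (median -1.36), against 9 of the 22 DEAD genes (median 0.33). Of the 5 DExD genes 1 was lower (median 0.75), and of the 8 DExH genes 3 (median 0.11). The DEAH genes Dhx8, Dhx15, Dhx16, Dhx35 and Dhx38 are also spliceosome genes, so that box and role cannot be told apart. HA groups overlapped for the DEAH genes Ddx11, Dhx16, Dhx33 and Dhx38. Of all genes, 45.9% were higher in HA, with a median of -0.14. Over the 3 other scalings, 6 to 8 of the DEAH genes and 6 to 11 of the DEAD genes were lower. No test was made of the difference between these classes.

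**Figure D4:**
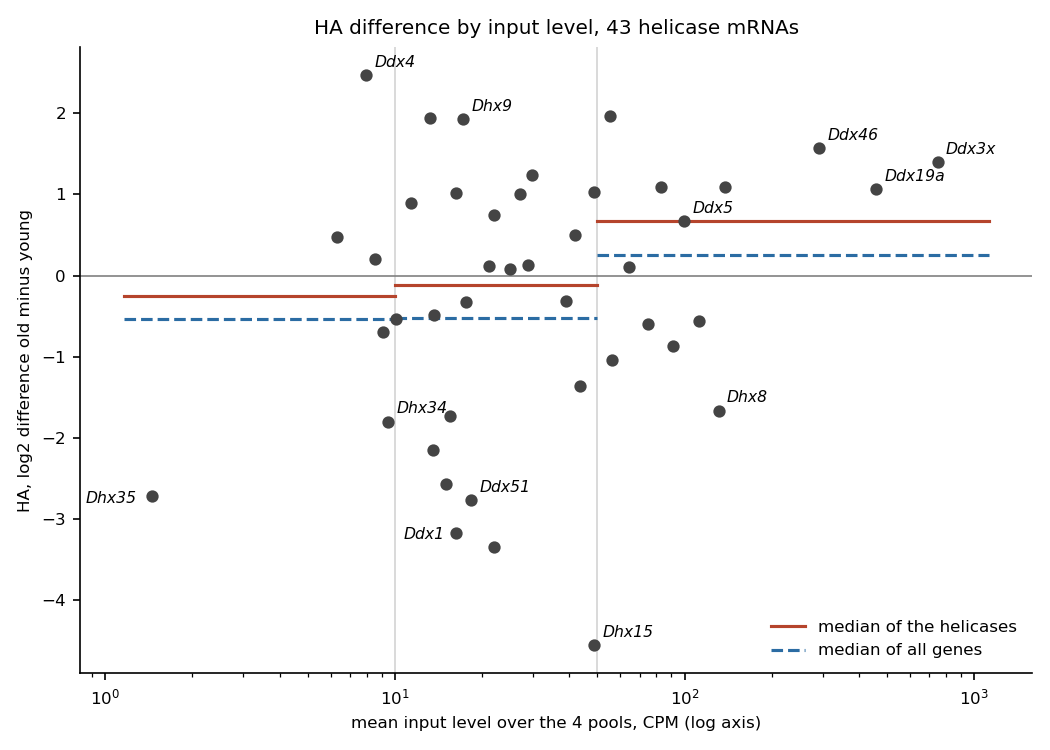
HA log2 difference old minus young against the mean input level of each of the 43 helicases on a log axis, with lines at the median of the helicases (solid) and of all genes of both tables (dashed) under 10 CPM, at 10 to 50 CPM and at 50 CPM or more in input. The medians at 50 CPM or more are 0.67 for the helicases and 0.26 for all genes, above those at the lower levels as deposited and below them by quantile normalization.

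Single pools decided several of these values. The alternatives included fits with 1 pool left out. Over them, the HA log2 difference ran from -0.80 to 2.86 for Ddx19b, 0.38 to 3.48 for Dhx9 and 0.66 to 3.27 for Ddx17. These 3 were among the genes with a high level in old HA pool 2. So were Ddx10, Ddx52 and Dhx32, at 159, 102 and 145 CPM there against 7.98, 7.25 and 17.8 CPM in old pool 1. With 1 pool left out, the HA log2 difference of Dhx15 ran from -5.13 to -3.97. The lone pool left at an age was assumed to vary like the pools of the other age in such fits. At an unadjusted p under 0.05, the number of members in HA ran from 3 (without young pool 2) to 17 (without old pool 1), and was 13 without old pool 2. The number in input was 0 without young pool 2, 5 without old pool 2 and 8 without old pool 1. For HA over input it was 1 without either young pool, 13 without old pool 2 and 16 without old pool 1. Ddx3x and Ddx46 kept a positive HA log2 difference in each of 16 alternatives, from 0.64 to 1.63 and from 0.93 to 1.82. With 1 pool left out, the log2 difference ran from 0.56 to 1.12 for Ddx3x, from 0.58 to 1.47 for Ddx5 and from -3.56 to -2.05 for Dhx8 in HA over input. In input it ran from 1.67 to 3.58 for Ddx54, from 0.99 to 1.77 for Ddx11, from -2.67 to -1.05 for Ddx23 and from -2.48 to -1.03 for Ddx60.

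RNA helicases outside the Ddx and Dhx names and proteins that work with helicases were read from the same fits. Of 24 other RNA helicases listed, 19 were measured in input and 20 in HA, and none passed an adjusted p under 0.05 in limma. At an unadjusted p under 0.05, 3 of the 20 were higher in HA (Ighmbp2, Dicer1 and Upf1, against 4.28% of all genes). Of the 19 in input, 1 was lower (Tdrd12, against 3.48%), and 1 was higher in HA over input (Upf1, against 2.98%). Ighmbp2 had 1 read in each young HA pool (0.0129 and 0.0176 CPM) and 2.33 and 6.39 CPM in old HA pools, and was absent from input. It was present in HA through the old pools alone, so its higher call is not read as a result. Of 35 helicase cofactors, 27 were measured in each table, and again none passed the adjusted threshold. 3 were higher in HA at an unadjusted p under 0.05 (Eif4g2, Gle1 and Gpatch8), 1 was lower in input (Gemin7) and 1 was higher in HA over input (Gpatch8), beside the same shares of all genes. Gle1 is the activator of the Ddx19 proteins at the nuclear pore.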

How the data were processed

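RNA-Seq of 8 libraries from 4 pools of 200 MII oocytes was used. The authors deposited signal values, namely CPM after TMM normalization, which they set separately for HA and input. Per the submitters' processing notes and the Methods, reads were checked with FastQC, trimmed with Trimmomatic 0.36, aligned to GRCm38 (mm10) with HISAT2, sorted with SAMtools and counted per gene without strand by HTSeq, and edgeR and limma were used. The stated filter is 10 CPM in at least 2 libraries, yet among deposited genes 63.4% (HA) and 64.3% (input) reach it. The columns left out numbered 0. Because counting ignored strand and used whole genes, reads of overlapping genes cannot be told apart. 16 members overlap another annotated gene, and 2 of these (Dhx30 and Dhx32) overlap a gene of the tables.

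Old and young pools were compared with limma 3.58.1 (lmFit and eBayes with trend, two-sided) on log2(CPM + 1), and p-values were adjusted over every gene of the table by the Benjamini-Hochberg method. HA over input was the difference of the log2 values of a pool, since both came from 1 lysate. In 100% of values CPM were whole multiples of the value of 1 read (tolerance 0.001 reads), so that reads were recovered. On these, edgeR 4.0.16 (likelihood ratio test) called 295 genes in HA, 50 in input and 212 in HA over input at an adjusted p under 0.05, its quasi-likelihood test called 0 in each, and DESeq2 1.42.0 called 508, 114 and 370. Quasi-likelihood tests at an unadjusted p under 0.05 gave 1201, 580 and 931 genes. For HA over input, these tests on reads fitted age, fraction and their interaction over 8 libraries without a term for the pool. HA and input of a pool counted as independent samples there. The models were tested on simulated data.

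The members and gene lists were chosen with earlier results of these data known. Values in every pool were given for a fixed set of well-known members, the most abundant in input, those with an unadjusted p under 0.05, the smallest p-values in each direction, and the highest and lowest in HA over input. Ddx58, Dhx30, Dhx40 and Ddx24 were added after their values were seen. Similarity between members was taken from shared 36-base words of GENCODE M21 transcripts, since protein sequences were not used here. R 4.3.3, Python 3.11.15, numpy 2.4.6, pandas 2.3.3, matplotlib 3.10.9 and Biopython 1.88 were used.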

Additional observations from a re-analysis of the deposited data

Results flagged for a closer look

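Dhx15 differed between the fractions in its old against young difference. The old minus young difference in HA less that in input was -6.20 on the log2 scale in edgeR's likelihood ratio test of the interaction (adjusted p = 0.00897). This test had no term for the pool, so HA and input of a pool counted as independent samples. The direction was seen in both old pools, with HA over input at 0.0204 and 0.0112 in old and 1.55 and 0.831 in young pools. In limma the same difference was -5.12 (adjusted p = 0.739), and its adjusted p ran from 2.84e-05 to 1 over 17 alternatives.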

How the results depend on the processing

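The next values cover 19 log2 differences, picked for an unadjusted p under 0.05 or a p among the 3 smallest of a direction. Members outside this pick did reverse, such as Ddx23 in HA in 7 of 16 alternatives. None of the 19 reversed under the alternatives run (pseudocount, filter, scaling, test, eBayes option, pool left out, replicate block). None had overlapping groups, so leaving out a pool could not reverse these 19 differences. The filter, eBayes option and replicate block leave their estimates unchanged. Of their 301 alternative values, 294 kept the side of the adjusted threshold and 7 newly passed it. For Dhx15 the values were -5.62 in HA and -6.20 for HA over input by the likelihood ratio test of edgeR, -5.41 and -6.06 in DESeq2, and -4.86 in HA without old pool 1. Dhx34 and Dhx35 newly passed in HA without young pool 2, where no value is given because their old pools held 0 to 4 reads.

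Members past the adjusted threshold numbered 0 in limma. In HA they numbered 1 by the likelihood ratio test of edgeR, 1 by DESeq2 and 0 to 4 with 1 pool left out, and for HA over input 1 in the likelihood ratio test, 1 in DESeq2 and 0 to 0 with 1 pool left out. In input they numbered 0 throughout. Members with an unadjusted p under 0.05 in HA, 6 in limma, numbered 3 with either filter at 10 CPM, 10 (1 higher, 9 lower, against 2 and 4) with libraries scaled to the same sum, where 112 of the 8898 genes were higher and 1283 lower, 3 by quantile normalization, 10 in DESeq2 and 3 to 17 with 1 pool left out. With scaling to the median log2 ratio 4 were higher and 3 lower. In input, 3 in limma, they numbered 7 in DESeq2 and 0 to 8 with 1 pool left out. For HA over input, 4 in limma, they numbered 2 by quantile normalization, 8 by the likelihood ratio test, 8 by DESeq2, 8 in eBayes without trend and 1 to 16 with 1 pool left out. Members with HA over input below the median in every pool, 6 with all pools, numbered 6 to 10 with 1 pool left out. The cause was not tested, apart from fewer genes tested under the filters and fewer samples with a pool left out.

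The sign of the members' median depended on the scaling. With libraries scaled to the same sum it was -0.12 in input, -0.52 in HA and -0.34 for HA over input, while the median of all genes moved by -0.17, -0.55 and -0.38. Relative to all genes the members' median was 0.24 higher in HA as deposited and 0.16, 0.23 and 0.30 higher with the same sum, the median log2 ratio and quantile normalization.

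Old and young pools share only a number in the labels. The correlation of the deviations of pools with the same number was 0.0786 in HA, 0.0269 in input and 0.0108 for HA over input, with 2 pairs. With the replicate block, 8 members had an unadjusted p under 0.05 in HA, 4 in input and 3 for HA over input, and none passed the adjusted threshold. There were 2 pools per age, and replicates of old HA libraries differed by a median of 1.41 log2 units. The HA standard errors of members under 10 CPM ranged from 0.75 to 1.67 log2 units, on a scale that understates low genes. Above 10 CPM they ran from 0.32 (Ddx3x) to 2.06 (Ddx47). Differences within these errors were not detectable. Dhx15, at -4.55 with a standard error of 1.48, had an adjusted p of 0.297 in limma.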

Other observations

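Ddx20, a partner of the SMN complex, and Ddx56, a nucleolar helicase, stood in the input table alone and are in no comparison of HA. Ddx20 had 24.9 and 18.7 CPM in young and 6.67 and 2.27 CPM in old input pools (1715 and 710 reads against 363 and 113). Ddx56 had 3355 and 71 reads in young and 2 and 0 reads in old input pools. Both old pools were below both young pools for each gene, and for Ddx56 the young pools were themselves far apart.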
